A study of Mus musculus with 24 samples.

Results

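The transcripts of 36 interferon-stimulated and antigen presentation genes were followed in mouse embryonic fibroblasts (MEFs), connective tissue cells grown from mouse embryos. The genes were taken by name from a list, 36 of the 55487 genes in the deposited gene table. A filter on low counts left 15828 genes, among them 35 of the 36. Zbp1, a sensor of nucleic acids in the Z conformation, did not pass the filter and was measured at between 0.0296 and 0.601 CPM (counts scaled for the size of each library) in all libraries.

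Poly(A) RNA was sequenced from 24 libraries of 2 genotypes, wild type (WT) and AMPK KO, which the study's methods describe as lacking both catalytic subunits of AMP-activated protein kinase, prkaa1 and prkaa2. Each genotype was treated with DMSO as vehicle, with MK-8722, a compound that switches AMPK on, or with torin1, which inhibits the kinase MTOR, and each of the 6 groups holds 4 libraries. Per group there is 1 library of each passage, 12 to 15 for WT, 16 to 19 for AMPK KO, so genotype and passage range cannot be told apart, and each genotype is a single line of MEFs received from another laboratory. Nothing in the labels says that the libraries of a group came from separately derived cells, so p-values measure the spread between these cultures. Library totals were 26900240 to 34192685 estimated counts, RNA integrity numbers were 9.7 to 10, and all libraries carry 1 batch label. Prkaa1 was at 65.6 to 82.5 CPM and Prkaa2 at 2.34 to 5.71 CPM in the 12 AMPK KO libraries, against 71.3 to 84.5 and 3.22 to 9.01 CPM in the 12 WT libraries. A knockout allele can keep its transcript, so these levels do not check the genotype labels.

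Of 11 fibroblast markers, Vim, Fn1, Col1a1, Pdgfrb and S100a4 were readily measured in both genotypes, Lum was at 0 or 1 count and Dcn at 0 to 11 counts in every library, and Col1a2, a collagen chain, was at 2503 ± 601 CPM in WT against 28.4 ± 12.6 CPM in AMPK KO with DMSO (mean ± SD, n = 4 each). By the thresholds given below, 8 of the 9 fibroblast markers tested were called lower and 1 higher in AMPK KO with DMSO. Over all genes 26.0% were lower and 30.9% higher. The summed level of the list with DMSO was 11300 to 16100 CPM in WT against 4940 to 5550 CPM in AMPK KO, and its part in the genotype differences below was not tested. Immune cells use many of the 36 genes heavily. Their leukocyte markers were close to absent, and the macrophage markers differed from gene to gene. Of 8 leukocyte markers, 7, among them Ptprc and Cd3e, had at most 3 counts in every library, and their summed level with DMSO was 0.0314 to 0.146 CPM in WT against 0.06 to 0.0971 CPM in AMPK KO. The macrophage marker Adgre1 was at 0 in all 24 libraries, whereas Cd68 had 36 to 120 and Cd14 37 to 98 counts. With DMSO the 8 macrophage markers summed to 4.42 to 4.65 CPM in WT against 4 to 5.33 CPM in AMPK KO. Of 3 tested, 1, Cd14, was called higher in AMPK KO with DMSO (33.3%, against 30.9% of all genes) and 0 were lower. The part of Cd14 in the genotype differences below was not tested. Summed over 4 genes each, endothelial markers were at 0.878 to 1.28 CPM and epithelial markers at 1.4 to 2.41 CPM in WT, and at 1.57 to 2.1 and 3.21 to 4.79 CPM in AMPK KO. In such bulk samples, fewer cells with a transcript and less of it per cell cannot be told apart.

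Interferons are secreted proteins by which infected or damaged cells warn themselves and their neighbours. Type I interferons signal through receptor-bound kinases of the JAK family to a complex that holds STAT2 and IRF9 and binds the interferon-stimulated response element (ISRE) in promoters of target genes, while interferon gamma acts mainly on gamma-activated sites (GAS). The target genes include sensors of viral RNA, effectors that block translation or virus release, guanylate-binding GTPases, and the machinery that loads peptides on major histocompatibility complex (MHC) class I molecules and shows them at the cell surface. Fibroblasts keep many of these genes at a low level without infection.

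The transcripts of the interferons themselves were next to absent in these cells. Of 10 interferon genes examined, 8, with Ifnb1 and 4 Ifna genes among them, were at 0 in all libraries, and Ifne and Ifng gave the remaining counts, 7 in all, with at most 2 in any library. A count of 0 allows up to 3 counts per library at this depth, so a trace of these transcripts, or interferon from outside the cells, cannot be told from none.

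The promoters of the 36 genes were searched for both elements, since these letters mark the sites through which interferon is known to act. RefSeq promoters (assembly GRCm38.p6) were found for 29 of the 36 genes, and the 250 bases before the start site were read on both strands. The core of the ISRE, GAAA followed after any 2 bases by GAAA, was present in 13 of the 29 (44.8%), against 3.46% of the 27025 genes with a promoter. The GAS, TTC followed after any 3 bases by GAA, was present in 6 (20.7%), against 8.13% of all genes. The stretches below show the match in capitals with its flanks, 5′ to 3′ on the strand of the gene, for genes of different roles: effectors that moved with MK-8722 (Ifit1, Ifit3, Cxcl10 and Bst2), the ubiquitin-like modifier Isg15, the class I light chain B2m, a GTPase (Gbp7) and the transcription factor Irf1. A match is a description of letters and was not tested for binding.
Ifit1 ISRE, chr19:34640760-34640819, plus strand, match starting 104 bases before the start site: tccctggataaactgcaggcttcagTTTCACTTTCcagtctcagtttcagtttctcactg
Ifit3 ISRE, chr19:34583348-34583407, plus strand, match starting 156 bases before the start site: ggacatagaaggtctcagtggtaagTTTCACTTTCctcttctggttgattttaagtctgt
Ifit3b ISRE, chr19:34607744-34607803, plus strand, match starting 188 bases before the start site: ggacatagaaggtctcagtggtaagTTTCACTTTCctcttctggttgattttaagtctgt
Cxcl10 ISRE, chr5:92349068-92349127, minus strand, match starting 213 bases before the start site: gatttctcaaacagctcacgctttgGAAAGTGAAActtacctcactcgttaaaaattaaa
Bst2 ISRE, chr8:71537562-71537621, minus strand, match starting 124 bases before the start site: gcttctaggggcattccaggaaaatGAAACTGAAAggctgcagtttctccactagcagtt
Isg15 ISRE, chr4:156200856-156200915, minus strand, match starting 72 bases before the start site: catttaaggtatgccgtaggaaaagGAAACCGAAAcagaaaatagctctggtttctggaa
B2m ISRE, chr2:122147523-122147582, plus strand, match starting 139 bases before the start site: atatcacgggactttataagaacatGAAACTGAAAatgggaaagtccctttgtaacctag
Gbp7 ISRE, chr3:142530258-142530317, plus strand, match starting 53 bases before the start site: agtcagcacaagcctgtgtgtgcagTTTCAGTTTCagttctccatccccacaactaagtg
Irf1 GAS, chr11:53769899-53769957, plus strand, match starting 90 bases before the start site: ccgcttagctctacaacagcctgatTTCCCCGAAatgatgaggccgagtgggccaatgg

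The stretches of Ifit3 and Ifit3b above are the same letter for letter. Both genes also share transcript sequence: 50.4% of the 52-base windows of Ifit3 occur in Ifit3b, so reads can be exchanged between them and their separate values are uncertain. The same holds for Oas1a, where 56.4% of the windows occur in Oas1g, and to a smaller part for Gbp7 (12.6%), H2-D1 and Rtp4 (11.5% each), H2-K1 (8.81%) and Ifit1 (6.91%). Ifi35 shares 16.8% of its exon bases with a gene on the other strand, and it is not stated whether strand was used in counting. In several promoters the matches overlap each other, as in Isg15.

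Levels between genes were compared per length, as TPM (transcript abundance scaled to length and library) summed over the transcripts of a gene. In WT with DMSO the most abundant of the 36 was B2m at 433 ± 12.0 TPM (SD, n = 4), followed by H2-K1, Samhd1, a phosphohydrolase that limits the supply of nucleotides to viruses, and H2-D1 at 137 ± 15.8, 109.9 ± 6.52 and 102.1 ± 12.1 TPM. Samhd1 and H2-D1 did not differ beyond their spread, and Bst2 came next at 33.7 ± 7.35 TPM. At the low end Ifit3b, Rsad2 and Zbp1 were at 0.251 ± 0.0942, 0.0976 ± 0.0726 and 0.0576 ± 0.00722 TPM. In AMPK KO with DMSO, B2m, H2-K1 and H2-D1 were the first 3 at 1154 ± 157, 891 ± 189 and 508 ± 96.2 TPM, and Oas1a and Zbp1 were last.

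**Figure D1:**
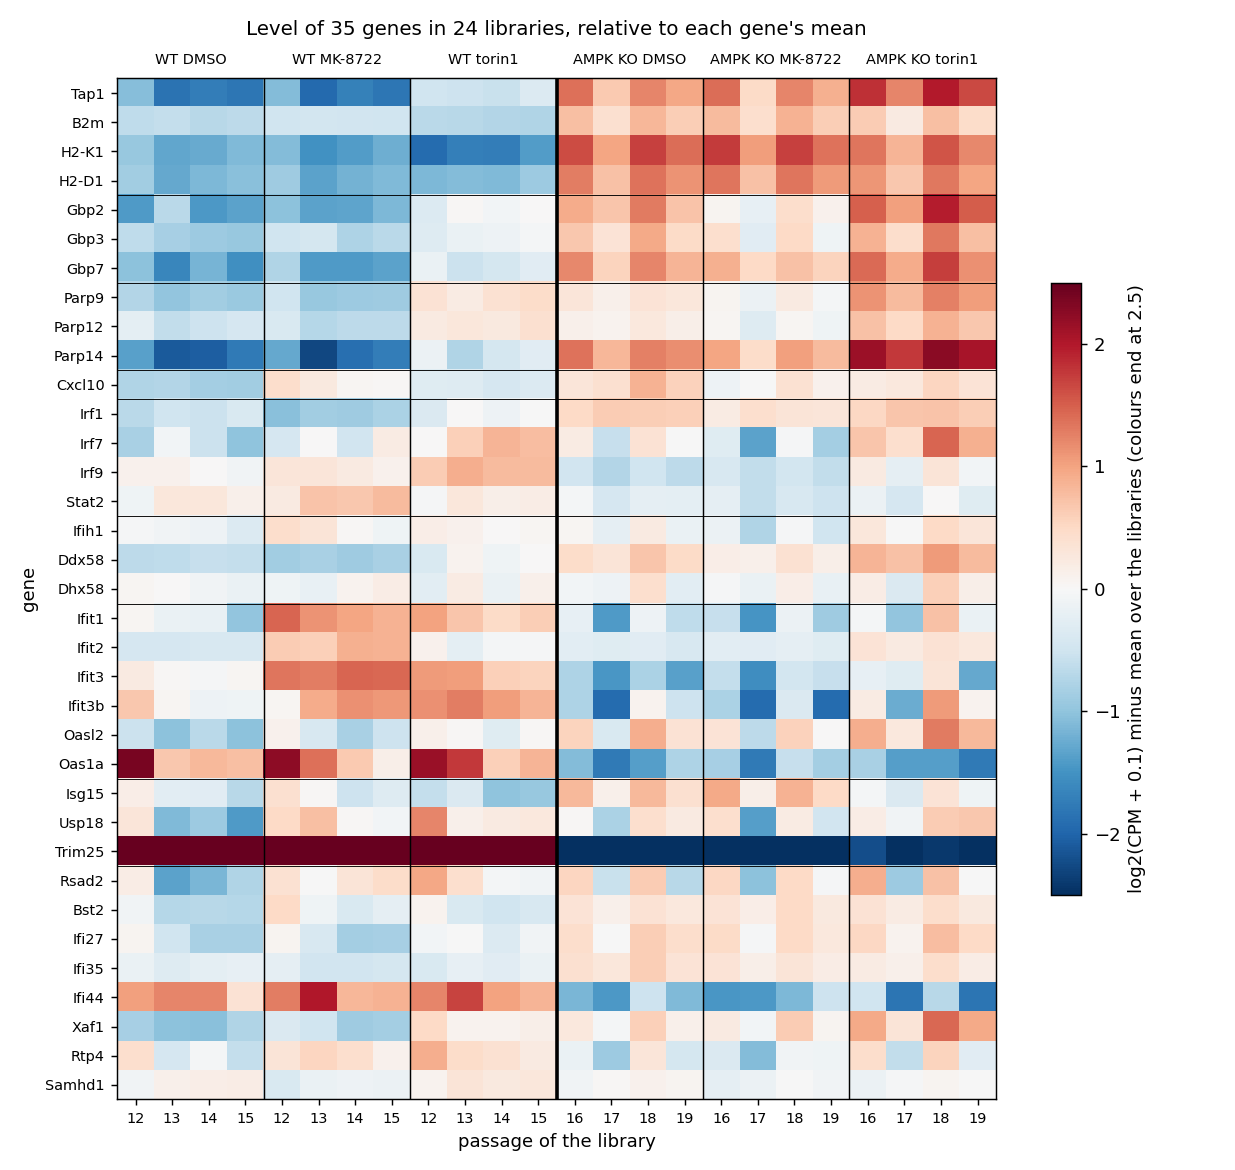
Heat map of the 35 genes that passed the filter (rows, grouped by role) in the 24 libraries (columns, ordered by group and then passage). Colour gives log2(CPM + 0.1) minus the mean of the gene over all libraries, ending at 2.5 in each direction. The 4 antigen presentation genes at the top are blue in WT and red in AMPK KO, Trim25 shows the opposite, and within AMPK KO the column of passage 17 is shifted toward blue against its neighbours for most genes in all 3 treatments.

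Values per library are given below in the order of passage, 12 to 15 for WT and 16 to 19 for AMPK KO, in CPM. Fold changes are log2 values from the edgeR quasi-likelihood fit on the whole table with their standard error (SE), and adjusted p-values are Benjamini-Hochberg values over all 15828 genes. A gene was called higher or lower where its adjusted p was below 0.05 and it differed at least 1.2-fold.

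Basal levels were compared between the genotypes with DMSO. The class I antigen presentation genes and the guanylate-binding GTPases were several-fold higher in AMPK KO, whereas the ubiquitin ligase Trim25 was nearly lost and some antiviral effectors were lower. Of the 35 genes, 19 were called higher and 6 lower in AMPK KO. Over all genes tested, 30.9% were higher and 26.0% lower, so the share called lower, 17.1%, was not above the background, and the share called higher was 54.3%. The median log2 fold change of the 35 was 0.80, against 0.02 over all genes.

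All 4 genes of the antigen presentation role were called higher. B2m (ENSMUSG00000060802, chromosome 2, 122147686 to 122153083), the light chain that every class I molecule carries, was at 214, 217, 203 and 209 CPM in WT against 552, 436, 584 and 506 CPM in AMPK KO, for a log2 fold change of 1.30 (SE 0.095, adjusted p = 1.4e-11). H2-K1 (ENSMUSG00000061232, chromosome 17, 33996017 to 34000347), a classical class I heavy chain that presents peptides to cytotoxic T cells, was at 100.1, 79.0, 81.2 and 89.9 CPM in WT against 603, 385, 636 and 513 CPM in AMPK KO, or 6.10-fold higher, with a log2 fold change of 2.61 (SE 0.174, adjusted p = 3e-12). The second classical heavy chain measured here, H2-D1 (ENSMUSG00000073411, chromosome 17, 35262730 to 35267499), was at 141, 106, 118 and 125 CPM in WT against 624, 428, 658 and 559 CPM in AMPK KO, for a log2 fold change of 2.21 (SE 0.147, adjusted p = 2.8e-12). For these 3 genes the lowest AMPK KO library, that of passage 17, lay far above the highest WT library. Tap1 (ENSMUSG00000037321, chromosome 17, 34187553 to 34197225), a subunit of the pump that carries peptides into the endoplasmic reticulum for loading, was at 7.60, 4.43, 4.77 and 4.503 CPM in WT against 41.9, 25.2, 37.7 and 31.7 CPM in AMPK KO, for a log2 fold change of 2.67 (SE 0.223, adjusted p = 1.7e-10). Passage 12 stood above the other WT libraries for Tap1 but below every AMPK KO library.

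Other genes of antigen processing were higher as well. Of 20 further genes of this pathway, 19 were tested and 15 were higher and 3 lower in AMPK KO, with a median log2 fold change of 1.32. The shares were 78.9% and 15.8%, against 30.9% and 26.0% of all genes. The 2 called genes with the largest rise were H2-Q6 and H2-Q7, non-classical class I heavy chains, with log2 fold changes of 9.20 (SE 0.481, adjusted p = 3.1e-14) and 7.59 (SE 0.346, adjusted p = 2.3e-15). H2-Q6 was at 0.188 CPM in WT against 115 CPM in AMPK KO, and H2-Q7 at 0.824 and 159.6 CPM. With 2 to 13 counts in the WT libraries, H2-Q6 passed the filter through AMPK KO alone. Its direction was thus set by the filter, and its place among the 15 is a description. Heavy chains resemble each other and differ between mouse strains, so a read of one may be counted for another, and the part of this in the genotype difference was not tested. The genes with the largest fall were the chaperones Pdia3 and Calr, which also serve the folding of proteins other than class I, at -0.83 and -0.78 (SE 0.048 and 0.064, adjusted p = 2.3e-13 and 1.4e-10). Nlrc5, the transactivator of class I genes, was named after its values had been seen: it had 12, 8, 3 and 10 counts in WT and 662, 503, 696 and 551 counts in AMPK KO with DMSO, for a log2 fold change of 6.02 (SE 0.283, adjusted p = 4.3e-15).

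MHC class II genes, which professional antigen-presenting cells use to show peptides to helper T cells, were also measured. Of 7 examined, 5 passed the filter and were higher in AMPK KO, but H2-Ab1 and H2-Eb1, with 0 to 2 counts in every WT library, passed through AMPK KO alone, so their direction was set by the filter and the count is a description. H2-Ab1, a class II beta chain, had 1, 0, 0 and 2 counts in WT and 290, 220, 275 and 236 counts in AMPK KO, a ratio of summed counts of 308 with an exact 95% interval of 105 to 1496 for counting error only. Cd74, the invariant chain that escorts class II molecules, was at 0.714 ± 0.397 CPM in WT against 24.1 ± 7.43 CPM in AMPK KO (mean ± SD, n = 4 each), with a log2 fold change of 5.09 (SE 0.397, adjusted p = 4.9e-11). Ciita, the class II transactivator, had at most 3 counts in every library of both genotypes.

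The 3 guanylate-binding GTPases, which attack vacuoles that hold microbes, were all higher in AMPK KO. Gbp2 (ENSMUSG00000028270, chromosome 3, 142620602 to 142638008) was at 1.41, 2.45, 1.40 and 1.51 CPM in WT against 7.63, 6.51, 9.84 and 6.58 CPM in AMPK KO, for a log2 fold change of 2.18 (SE 0.205, adjusted p = 1.4e-09). Gbp7 was higher by 2.37 (SE 0.202), and Gbp3 was at 4.56 ± 0.866 against 1.61 ± 0.170 CPM (mean ± SD, n = 4 each, adjusted p = 2.9e-07). The groups did not overlap for any of the 3 genes.

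All 3 genes of the poly(ADP-ribose) polymerase family, enzymes that attach ADP-ribose to proteins, were higher as well. Parp14 (ENSMUSG00000034422, chromosome 16, 35832874 to 35871544) was at 2.95, 1.72, 1.76 and 2.20 CPM in WT against 19.9, 13.7, 18.5 and 17.3 CPM in AMPK KO, 7.97-fold higher, with a log2 fold change of 2.99 (SE 0.192, adjusted p = 1.4e-12). This was the largest rise among the members called in this comparison. Parp9, which pairs with the ubiquitin ligase Dtx3l and shares 9.40% of its exon bases with it on the other strand, and Parp12 were higher by 1.15 and 0.60 (SE 0.107 and 0.093).

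The transcription factors of the interferon response did not share a direction. Irf1 (ENSMUSG00000018899, chromosome 11, 53770014 to 53778374), which drives class I and GTPase genes and follows interferon gamma, was at 30.8, 34.9, 33.6 and 37.7 CPM in WT against 69.0, 76.6, 75.0 and 73.7 CPM in AMPK KO, for a log2 fold change of 1.10 (SE 0.074, adjusted p = 3.3e-12). Irf9 (ENSMUSG00000002325, chromosome 14, 55603571 to 55610030), the DNA-binding part of the complex that reads the ISRE, was lower, at 16.4, 16.3, 15.4 and 14.3 CPM in WT against 10.8, 9.06, 10.8 and 9.58 CPM in AMPK KO, for a log2 fold change of -0.63 (SE 0.1, adjusted p = 5.7e-06). Its partner Stat2 (ENSMUSG00000040033, chromosome 10, 128270559 to 128292849) was at 24.1, 31.8, 31.9 and 28.6 CPM in WT against 25.1, 19.6, 22.4 and 21.9 CPM in AMPK KO, for a log2 fold change of -0.39 (SE 0.118, adjusted p = 0.0056). The groups were separate for Irf1 and Irf9, and overlapped for Stat2, where the WT library of passage 12 was below the AMPK KO library of passage 16. Irf7 (ENSMUSG00000025498, chromosome 7, 141262706 to 141266481), the factor that amplifies type I interferon, was at 1.26, 2.16, 1.54 and 1.08 CPM in WT against 2.62, 1.49, 2.94 and 2.26 CPM in AMPK KO and was not called (log2 fold change 0.63, SE 0.299, adjusted p = 0.065).

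Upstream of these factors, 10 of 17 genes of interferon receptors and their signalling were higher and 0 were lower in AMPK KO by edgeR. The share higher was 58.8%, against 30.9% of all genes, and 26.0% of all genes were lower. Irf8, a factor of the same family known from myeloid cells, had 1, 1, 1 and 3 counts in WT and 278, 127, 177 and 167 counts in AMPK KO. Over all treatments WT gave 0 to 8 counts of Irf8, too few for the filter, which the gene passed through AMPK KO alone. The filter thus set the direction of Irf8, and its place among the 10 and in the 58.8% is a description. Ifnlr1, a receptor chain for type III interferon, was at 0.258 and 3.87 CPM, a log2 fold change of 3.88 (SE 0.288, adjusted p = 2e-11).

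Of the RNA sensors, Ddx58, which encodes RIG-I, was higher in AMPK KO at 40.7 ± 4.52 against 18.8 ± 0.516 CPM (SD, n = 4 each), with a log2 fold change of 1.11 (SE 0.089, adjusted p = 8.1e-11). Ifih1, which encodes MDA5, and Dhx58, their regulator, were not called (log2 fold changes 0.13 and 0.07, SE 0.142 and 0.184). Among 14 tested genes of nucleic acid sensing outside the members, 4 were higher and 4 lower. These shares, 28.6% each, were near the 30.9% higher and 26.0% lower of all genes. Tlr3, the endosomal receptor of double-stranded RNA, and Ifi204 were higher by 2.93 and 0.97, and the adaptor Myd88 and the endotoxin receptor Tlr4 were lower, at -0.81 and -0.68 (SE 0.152, 0.138, 0.061 and 0.115).

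The effectors of translation and RNA decay did not share a direction. Oas1a (ENSMUSG00000052776, chromosome 5, 120896256 to 120907521), which makes the second messenger that activates RNase L, had 53, 12, 14 and 13 counts in WT and 2, 0, 1 and 3 counts in AMPK KO. The ratio of summed counts was 17.0 in favour of WT, with an exact 95% interval of 7.50 to 47.4 for counting error only, and the fitted log2 fold change was -3.94 (SE 0.778, adjusted p = 9e-05). Its relative Oasl2 was higher in AMPK KO (1.26, SE 0.274). Of the IFIT family, proteins that trap viral RNA and slow translation, Ifit3 was lower (-1.25, SE 0.286), whereas Ifit1, Ifit2 and Ifit3b were not called (-0.25, 0.10 and -1.12, SE 0.318, 0.068 and 0.66).

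Trim25 (ENSMUSG00000000275, chromosome 11, 88999376 to 89020293), the ubiquitin ligase that activates RIG-I and can attach ISG15, showed the largest difference of all members. It was at 56.0, 50.4, 50.6 and 48.7 CPM in WT against 0.793, 0.518, 0.570 and 0.523 CPM in AMPK KO, 84.7-fold lower, with a log2 fold change of -6.40 (SE 0.146, adjusted p = 4.8e-21). The 12 AMPK KO libraries held 16 to 46 counts and the 12 WT libraries 1183 to 2671, so no library came close to the other genotype. Isg15, the modifier itself, was higher in AMPK KO (0.81, SE 0.221, adjusted p = 0.0024), and Usp18, the protease that removes ISG15 and dampens the receptor, was not called (0.73, SE 0.449).

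The chemokine Cxcl10, which draws activated T cells, was at 7.44, 7.61, 6.95 and 6.85 CPM in WT against 15.6, 16.8, 23.2 and 19.0 CPM in AMPK KO, for a log2 fold change of 1.37 (SE 0.121, adjusted p = 4.5e-10). Of the other 8 antiviral effectors, Bst2, which tethers budding virus to the cell, Ifi27, Ifi35 and the apoptosis factor Xaf1 were higher by 0.80, 0.85, 0.65 and 1.22 (SE 0.162, 0.202, 0.08 and 0.223). Ifi44 was lower, with 20, 20, 21 and 10 counts in WT and 2, 1, 5 and 2 counts in AMPK KO (log2 fold change -2.91, SE 0.553, adjusted p = 5.7e-05). Rsad2, the radical enzyme viperin, Rtp4 and Samhd1 were not called (0.92, -0.14 and -0.07, SE 0.539, 0.295 and 0.066).

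A wider list of 59 interferon-stimulated genes outside the members gave 23 higher and 7 lower of 46 tested, with a median of 0.47. The shares were 50% and 15.2%, against 30.9% and 26.0% of all genes. Uba7, the enzyme that activates ISG15, and Apol9b were higher by 3.24 and 2.84, and Tgtp2 and Helz2 were lower, at -3.39 and -2.79 (SE 0.251, 0.179, 0.515 and 0.122). Tgtp2, with at most 9 counts in any AMPK KO library, passed the filter through WT alone, so its direction was set by it. The same holds for Tgtp1 and Phf11d, at 0 to 4 and 0 to 5 counts in AMPK KO. Epsti1, at 0 to 4 counts in WT and 11 to 29 in AMPK KO, passed through AMPK KO alone. The filter set the direction of these genes too, so the shares of 50% and 15.2% are in part a description.

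The genotypes were also compared under each drug. With MK-8722, 16 members were higher and 11 lower in AMPK KO (31.4% and 27.5% of all genes), and with torin1, 20 were higher and 8 lower (31.0% and 23.6% of all genes). These 3 comparisons share no library. The same 16 members were higher in all 3: the 4 antigen presentation genes, the 3 GTPases, the 3 PARPs, Irf1, Ddx58, Isg15, Ifi27, Ifi35 and Xaf1. The 6 genes lower with DMSO, which are Trim25, Oas1a, Ifi44, Ifit3, Irf9 and Stat2, were lower in all 3. The share of all genes called the same way in all 3 was not counted, so these 16 and 6 genes are a description. With scaling by library size alone Stat2 was not called with DMSO or torin1 (adjusted p = 0.083 and 0.067), and with torin1 the calls of Isg15 and Ifi27 were lost in 3 and 1 of 8 fits without 1 library. Oas1a and Ifi44, with at most 5 counts in any AMPK KO library, passed the filter through WT alone, so their direction was set by it. H2-K1, Tap1 and Parp14 had the largest differences in favour of AMPK KO under each drug. With MK-8722, H2-K1 was at 91.5, 67.8, 73.4 and 82.7 CPM in WT against 652, 399, 632 and 494 CPM in AMPK KO, and with torin1 at 50.9, 58.8, 58.2 and 73.8 and 491, 349, 579 and 448 CPM, log2 fold changes of 2.79 and 2.95 (SE 0.176 and 0.178). No AMPK KO library overlapped a WT library for this gene.

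For Trim25, the libraries with MK-8722 gave 55.8, 46.1, 45.7 and 46.7 CPM in WT against 1.02, 0.517, 0.773 and 0.770 CPM in AMPK KO, and those with torin1 84.4, 78.0, 78.9 and 75.2 and 1.41, 0.660, 1.23 and 0.733 CPM. The separation was thus present in all 3 treatments, at log2 fold changes of -5.96 and -6.29 under the drugs (SE 0.14 and 0.133). Oas1a and Ifi44 were the next lowest, at -3.20 and -3.43 with MK-8722 and -4.34 and -3.36 with torin1. Ifit1, Ifit2, Ifit3b, Ifih1 and Rtp4 were lower in AMPK KO with MK-8722 without having been called with DMSO. Under torin1 Ifit2 was instead higher in AMPK KO (0.35, SE 0.066), and Samhd1 was lower (-0.27, SE 0.066). Bst2, Oasl2 and Cxcl10, higher in AMPK KO with DMSO and torin1, were not called with MK-8722 (0.33, 0.52 and -0.11, SE 0.159, 0.27 and 0.116). The call of Ifit1 under torin1 (-0.71, adjusted p = 0.035) was lost in 3 of 8 fits that each left out 1 library, and without the earliest passages. With MK-8722 that of Rtp4 was lost with scaling by library size alone and without passage 17 (adjusted p = 0.056 and 0.053). It was also lost without the WT library of passage 13 or the AMPK KO library of passage 17 (adjusted p = 0.055 and 0.09).

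**Figure D2:**
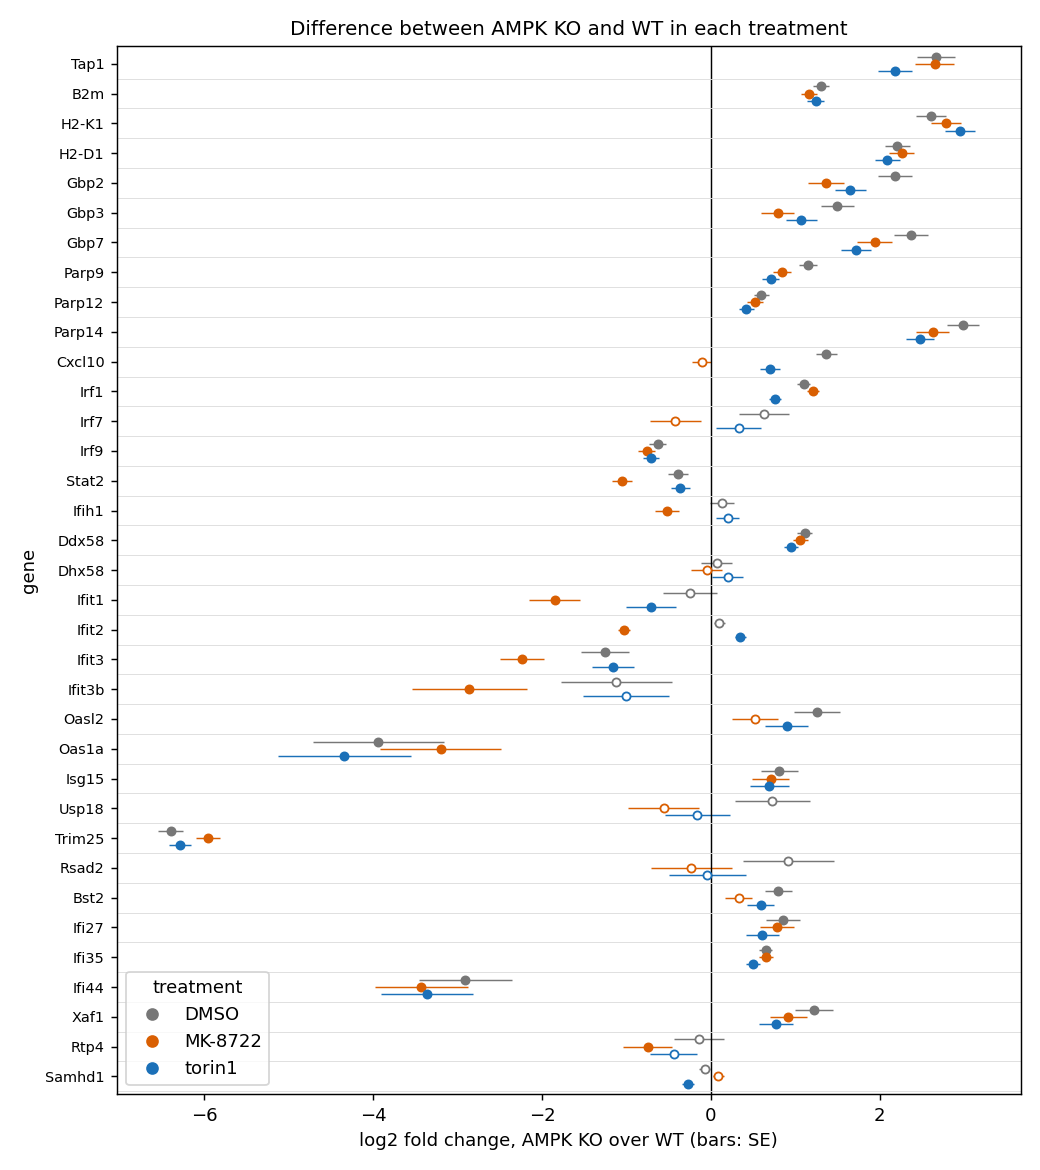
Log2 fold change of AMPK KO over WT (horizontal axis) for each of 35 genes (vertical axis) with DMSO, MK-8722 and torin1, with bars of 1 SE. Filled points were called and open points were not. The antigen presentation genes, GTPases and PARPs lie to the right in all 3 treatments, Trim25, Oas1a and Ifi44 far to the left, and Ifit1, Ifit2 and Cxcl10 change place with the treatment.

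**Figure D3:**
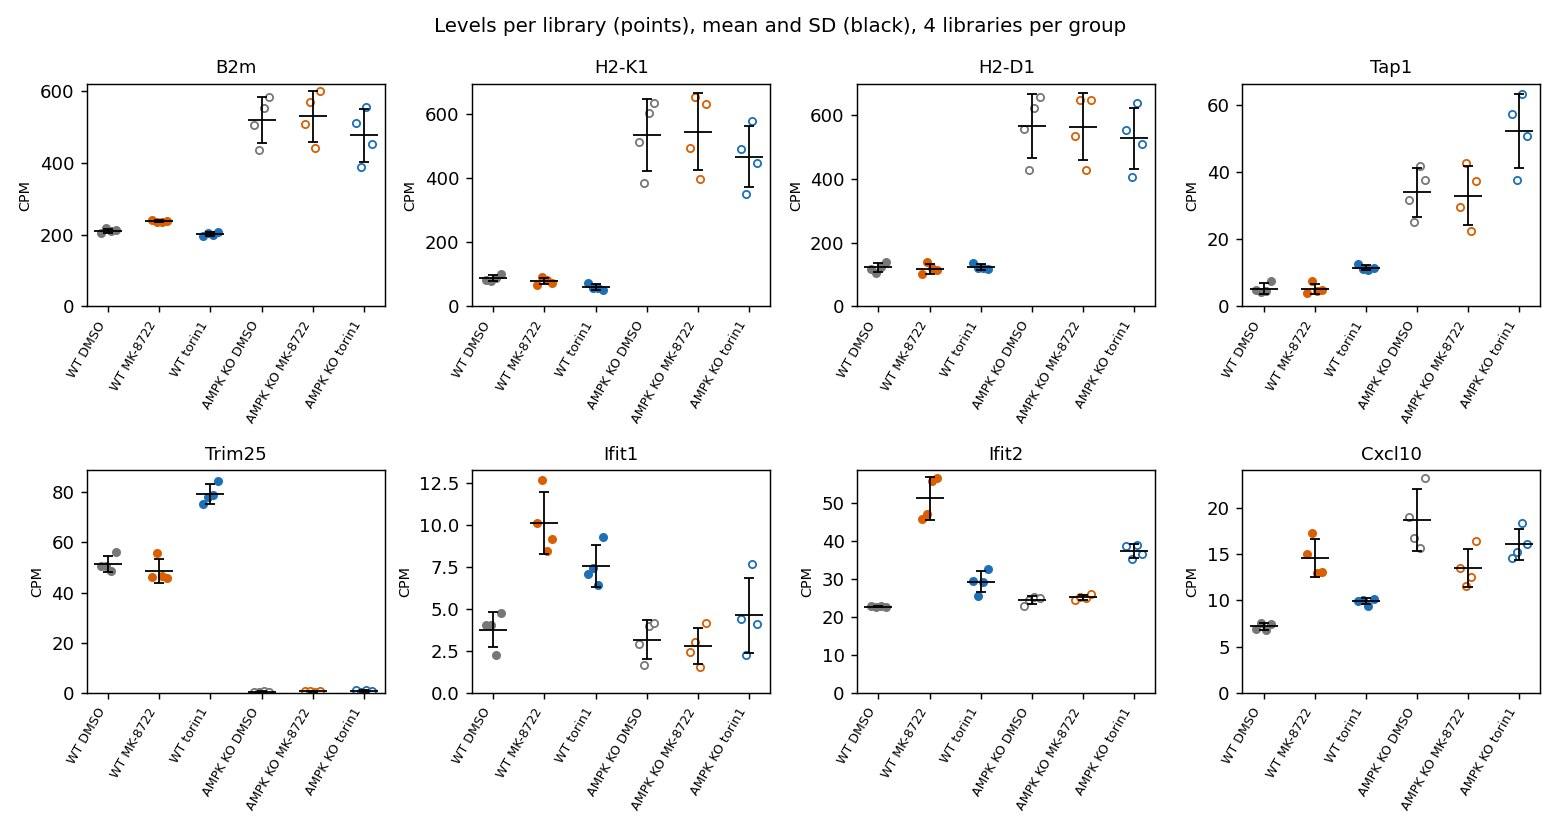
CPM per library (points, filled for WT and open for AMPK KO) with mean and SD in black for 8 genes in the 6 groups of 4 libraries. B2m, H2-K1, H2-D1 and Tap1 are higher in every AMPK KO library than in any WT library, Trim25 is near 0 in AMPK KO, and Ifit1, Ifit2 and Cxcl10 rise with MK-8722 in WT.

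The response to the AMPK activator MK-8722 was examined in WT first. A small group of effectors rose, led by the IFIT genes and Cxcl10, while antigen presentation genes, GTPases and PARPs were not called. Of the 35 genes, 6 were higher and 2 lower, against 10.0% higher and 5.66% lower among all genes. The share called higher was 17.1% and the share called lower 5.71%, and the median log2 fold change was 0.18. With passage added to the model, 13 members were called in either direction, beside 1778 higher and 1129 lower among all genes. Of 3 tested endothelial markers 1, the receptor Kdr, was also higher with MK-8722, at 6.53 ± 1.75 against 0.888 ± 0.166 CPM (mean ± SD, n = 4 each), while Pecam1 and Cdh5 had at most 5 counts in any library of both groups. Of 3 tested macrophage markers 1, Cd68, was higher as well and 0 were lower. Cd68 had 52 to 65 counts with DMSO and 75 to 120 counts with MK-8722. The part of Kdr and Cd68 in the result was not tested.

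Ifit1 (ENSMUSG00000034459, chromosome 19, 34640871 to 34650009) was at 4.74, 4.06, 4.04 and 2.27 CPM with DMSO and 12.7, 10.1, 9.18 and 8.44 CPM with MK-8722, a log2 fold change of 1.42 (SE 0.3, adjusted p = 8.9e-04). Ifit3 (ENSMUSG00000074896, chromosome 19, 34583531 to 34588731) was at 1.57, 1.35, 1.30 and 1.37 CPM with DMSO and 3.51, 3.35, 3.79 and 3.73 CPM with MK-8722, a log2 fold change of 1.36 (SE 0.245, adjusted p = 1.7e-04). Ifit2 (ENSMUSG00000045932, chromosome 19, 34550694 to 34576419) varied little between libraries, at 22.6, 22.6, 22.8 and 22.9 CPM with DMSO and 46.9, 45.7, 56.3 and 55.6 CPM with MK-8722, a log2 fold change of 1.17 (SE 0.067, adjusted p = 1.4e-11). For all 3 genes every library with MK-8722 was above every library with DMSO. Ifit3b, at 0.323 ± 0.121 and 0.589 ± 0.203 CPM (SD, n = 4 each), was not called (adjusted p = 0.28).

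Cxcl10 (ENSMUSG00000034855, chromosome 5, 92346638 to 92348889) rose from 7.44, 7.61, 6.95 and 6.85 CPM with DMSO to 17.3, 15.0, 13.1 and 12.9 CPM with MK-8722, a log2 fold change of 1.01 (SE 0.123, adjusted p = 1.1e-06) without overlap. Stat2 rose to 30.7, 42.6, 41.6 and 45.2 CPM (0.46, SE 0.116, adjusted p = 0.004), where the library of passage 12 stayed within the range of the DMSO libraries. Bst2 rose from 19.3, 12.4, 12.5 and 12.4 to 28.8, 18.9, 15.6 and 17.5 CPM (0.51, SE 0.165, adjusted p = 0.023), with overlapping groups, and this call was lost in 4 of 8 fits without 1 library, with an adjusted p of up to 0.15. Of these 6 genes that rose, 5 are among the 13 with the ISRE letters in the promoter stretch, and Ifit2 is not.

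The 2 genes that fell were Irf1 and Samhd1. Irf1 was at 23.6, 26.9, 26.5 and 28.4 CPM with MK-8722, below every DMSO library, a log2 fold change of -0.38 (SE 0.077, adjusted p = 6.4e-04). Samhd1 (ENSMUSG00000027639, chromosome 2, 157097533 to 157135265) was at 163, 189, 194 and 196 CPM with DMSO and 133, 153, 157 and 156 CPM with MK-8722, a log2 fold change of -0.30 (SE 0.067, adjusted p = 0.0012). Both groups were separate for Samhd1, though the smallest value with DMSO, at passage 12, was only slightly above the largest with MK-8722. Irf7 and Irf9, at 1.68, 2.30, 1.60 and 2.63 and 18.8, 18.7, 17.8 and 16.5 CPM, were not called (adjusted p = 0.32 and 0.13).

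Class I genes showed no called change with MK-8722 in WT. B2m was at 235, 240, 237 and 234 CPM, above all DMSO libraries, but the log2 fold change of 0.17 (SE 0.094, adjusted p = 0.21) did not pass. H2-D1 and Tap1 were at 139, 101, 113 and 120.2 and 7.57, 4.09, 4.89 and 4.52 CPM and within the range of the DMSO libraries or next to it. Usp18 and Rsad2, which had large but uncertain values, were not called (1.07 and 1.14, SE 0.445 and 0.539). Among genes outside the members, 3 of 46 further interferon-stimulated genes were higher and 2 lower, 1 of 19 of antigen processing was higher, 2 of 17 of receptor signalling were higher and 1 lower, and 1 of 14 of sensing was lower. The shares higher were 6.52%, 5.26%, 11.8% and 0% in that order, against 10.0% of all genes. Those lower were 4.35%, 0%, 5.88% and 7.14%, against 5.66%. None of these counts was thus far above the background, and the genes named next are a description. The named ones were Oasl1 and Herc6 (0.76 and 0.38), Nlrc5 (1.32), Ifnlr1 and the kinase Tyk2 (1.43 and 0.28) on the higher side. On the lower side were Slfn9 and Pml (-0.40 and -0.33), the feedback inhibitor Socs1 (-0.45) and Ifi204 (-1.12).

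In AMPK KO, MK-8722 gave no called rise. Of the 35 genes 0 were called higher by edgeR or by DESeq2, with 0 at an unadjusted p under 0.05 in that direction, and 3 were called lower (8.57%), against 0.866% higher and 0.695% lower of all genes. Gbp2 fell from 7.63, 6.51, 9.84 and 6.58 to 4.15, 3.42, 5.38 and 4.30 CPM, a log2 fold change of -0.83 (SE 0.183, adjusted p = 0.016) without overlap. Cxcl10 was at 15.6, 16.8, 23.2 and 19.0 CPM with DMSO and 11.6, 12.5, 16.4 and 13.5 CPM with MK-8722 (-0.47, SE 0.114, adjusted p = 0.029), and the groups overlapped. Irf1 was at 69.0, 76.6, 75.0 and 73.7 and 56.8, 65.9, 61.7 and 60.3 CPM (-0.27, SE 0.072, adjusted p = 0.047), with every library with MK-8722 below those with DMSO. These calls are close to the threshold: leaving out 1 library ended that of Irf1 in 7, that of Cxcl10 in 5 and that of Gbp2 in 3 of 8 fits, and 1 of the 3 was left without passage 17. With passage added to the model, 9 members were called in either direction, beside 414 higher and 315 lower among all genes.

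The IFIT genes, which rose in WT, were not called here. Ifit2 was at 25.1, 24.4, 24.96 and 22.8 CPM with DMSO and 25.2, 24.9, 26.0 and 24.4 CPM with MK-8722, a log2 fold change of 0.05 (SE 0.068, adjusted p = 0.82). Ifit1 was at 3.97, 1.65, 4.17 and 2.91 and 3.04, 1.58, 4.15 and 2.43 CPM, a log2 fold change of -0.19 (SE 0.324). Ifit3 was at 0.842, 0.387, 0.934 and 0.859 CPM with MK-8722, a log2 fold change of 0.37 (SE 0.303, adjusted p = 0.61). The other transcription factors, Irf7, Irf9 and Stat2, gave -0.61, 0.07 and -0.20 (SE 0.295, 0.102 and 0.119) and were not called.

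Whether the response to MK-8722 differed between genotypes was tested with an interaction term. Of the 35 genes, edgeR called 5 and DESeq2 6 as lower in AMPK KO than in WT, and 0 were called higher by either, with 0 at an unadjusted p under 0.05 in that direction, against 7.66% lower and 5.12% higher over all genes. The differences in response were -1.60 for Ifit1, -1.48 for Cxcl10 and -1.12 for Ifit2 on the log2 scale (SE 0.441, 0.168 and 0.095, adjusted p = 0.014, 1.4e-06 and 3.4e-08). Stat2 and Ifih1 followed with -0.67 and -0.65 (SE 0.166 and 0.202, adjusted p = 0.0072 and 0.028). For Ifit3 the difference of -0.99 (SE 0.393, adjusted p = 0.087) did not pass. The Ifih1 call was lost in 6 of 16 fits without 1 library, and without the earliest passages both Ifih1 and Ifit1 were lost (Ifit1 at -1.53, adjusted p = 0.056). Adding passage to the model gave 14 called members in either direction, beside 1200 higher and 1585 lower among all genes.

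The response to MTOR inhibition was broader. In WT, torin1 raised members of nearly every role, with the PARPs, GTPases, Tap1, Irf7 and Irf9 among them, and lowered H2-K1. Of the 35 genes, 20 were higher and 1 lower, against 26.6% higher and 21.1% lower among all genes. The shares were 57.1% and 2.86%, and the median log2 fold change was 0.62 against 0.04 over all genes. Markers of other cell types moved with torin1 too: Epcam, Cdh1 and Krt18, the 3 tested epithelial markers, were called higher (summed level 3.1 to 5.2 CPM against 1.4 to 2.41 CPM with DMSO), and of 9 tested fibroblast markers 4 were higher and 3 lower. Their part in the result was not tested.

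The PARPs gave the clearest rise. Parp14 went from 2.95, 1.72, 1.76 and 2.20 to 6.91, 4.51, 5.67 and 6.31 CPM, a log2 fold change of 1.42 (SE 0.206, adjusted p = 2.2e-06). Parp9 (ENSMUSG00000022906, chromosome 16, 35938470 to 35972605) went from 8.85, 7.42, 8.07 and 7.71 to 19.1, 17.2, 19.4 and 20.3 CPM, a log2 fold change of 1.24 (SE 0.107, adjusted p = 5.8e-10). Parp12 rose by 0.73 (SE 0.093), and no gene of the 3 had overlapping groups. The GTPases Gbp2 and Gbp3 rose by 1.14 and 0.69 (SE 0.214 and 0.202) and Gbp7 from 1.48 ± 0.310 to 2.98 ± 0.364 CPM (adjusted p = 2.9e-04), also without overlap.

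Usp18 (ENSMUSG00000030107, chromosome 6, 121245906 to 121270917) rose from 0.942, 0.293, 0.351 and 0.216 to 1.86, 0.825, 0.886 and 0.906 CPM, a log2 fold change of 1.27 (SE 0.433, adjusted p = 0.014). In each group the passage 12 library was the highest, and the DMSO library of that passage was above 3 of the torin1 libraries. The call of Usp18 was lost without the torin1 library of passage 12 (adjusted p = 0.088) and without the DMSO library of passage 15 (adjusted p = 0.056). Trim25 rose by 0.62 (SE 0.088) without overlap, while Isg15 was not called (-0.48, SE 0.235).

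Among the transcription factors, Irf7 rose to 2.30, 3.49, 4.17 and 3.95 CPM (1.21, SE 0.292, adjusted p = 0.001), Irf9 to 23.5, 28.8, 26.4 and 26.2 CPM (0.75, SE 0.096, adjusted p = 3.3e-07) and Irf1 to 38.1, 49.5, 44.8 and 48.4 CPM (0.40, SE 0.075, adjusted p = 6.1e-05). For all 3 the torin1 libraries lay above the DMSO libraries. Stat2 was at 25.6, 32.0, 29.1 and 29.6 CPM and was not called (adjusted p = 1).

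Antigen presentation genes did not move together under torin1. Tap1 rose to 11.4, 11.3, 10.96 and 12.6 CPM (1.11, SE 0.234, adjusted p = 2.6e-04), whereas H2-K1 fell to 50.9, 58.8, 58.2 and 73.8 CPM (-0.54, SE 0.171, adjusted p = 0.0089), both without overlap with DMSO. B2m and H2-D1, at 207, 204, 199 and 196 and 118, 121, 120.1 and 137 CPM, were not called (-0.06 and 0.02, SE 0.094 and 0.143). The call of H2-K1 was lost without the earliest passages.

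Of the other effectors, Xaf1, Rsad2, Ifit3, Oasl2, Ddx58, Cxcl10 and Ifit2 rose by 1.18, 1.23, 0.80, 0.80, 0.54, 0.46 and 0.36 (SE 0.068 to 0.526). Ifit1 rose to 9.31, 7.46, 6.44 and 7.07 CPM (adjusted p = 0.0062). The rise of Rsad2, which was at most 0.927 CPM, was lost in 5 of 8 fits without 1 library. That of Oasl2 was lost without the DMSO library of passage 13 or that of passage 15 (adjusted p = 0.051 each). Of the 13 members with the ISRE letters, 7 rose with torin1, and 10 of the 16 without them rose.

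Outside the members, 22 of 46 further interferon-stimulated genes rose and 3 fell with torin1 in WT, with a median of 0.60. The shares were 47.8% and 6.52%, against 26.6% and 21.1% of all genes. In receptor signalling, sensing and antigen processing, 41.2%, 21.4% and 26.3% rose, and 17.6%, 35.7% and 15.8% fell. Trim34a and the GTPase Igtp rose by 1.75 and 1.55, and Isg20 and Tor3a fell by 0.70 and 0.53. Of 17 genes of receptor signalling, 7 rose, led by Ifnlr1 and the phosphatase Ptpn6 (1.83 and 0.63), and 3 fell, among them Socs1 and Jak1 (-0.55 and -0.41). Sensing genes gave 3 higher, with Trex1 and Tlr3 among them (0.91 and 0.77), and 5 lower of 14, led by Ticam1 and Rnaseh2b (-0.48 and -0.48). In antigen processing 5 of 19 rose, with Nlrc5 and Tap2 at 1.86 and 1.27, and 3 fell, with Calr and Pdia3 at -1.36 and -0.72. Of 5 tested class II genes H2-DMb1 and H2-DMa rose (1.28 and 0.78).

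In AMPK KO, torin1 raised 12 of the 35 genes and lowered 1, against 25.9% and 17.6% of all genes. The 12 are Irf7, Parp14, Ifit3, Parp9, Trim25, Xaf1, Irf9, Tap1, Gbp2, Ifit2, Parp12 and Ddx58, all of which were also called higher in WT. The share of all genes called higher in both genotypes was not counted, so this overlap is a description. The WT and AMPK KO comparisons share no library. Parp14 went from 19.9, 13.7, 18.5 and 17.3 to 34.3, 26.5, 37.3 and 32.2 CPM, a log2 fold change of 0.91 (SE 0.152, adjusted p = 1.9e-05). Irf7 went from 2.62, 1.49, 2.94 and 2.26 to 3.72, 3.06, 6.43 and 4.30 CPM (0.91, SE 0.274, adjusted p = 0.0067), and both of these genes had separate groups. Ifit3 went from 0.732, 0.421, 0.720 and 0.458 to 1.14, 1.05, 1.68 and 0.488 CPM (0.89, SE 0.29, adjusted p = 0.011), with the torin1 library of passage 19 within the DMSO range, and its adjusted p was 0.051 without passage 17.

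The gene that fell was Isg15 (ENSMUSG00000035692, chromosome 4, 156199424 to 156200818), from 13.5, 8.29, 13.4 and 10.0 to 7.34, 5.94, 9.62 and 7.05 CPM (-0.59, SE 0.217, adjusted p = 0.022), where the groups overlapped. Irf9 was at 17.8, 12.9, 19.1 and 14.5 CPM with torin1 (0.67, SE 0.099) and Tap1 at 57.4, 37.8, 63.5 and 50.8 CPM (0.62, SE 0.188), whose libraries overlapped with DMSO. Irf1 and Stat2, at 70.2, 79.6, 80.1 and 75.5 and 23.7, 19.6, 26.3 and 21.03 CPM, were not called (0.05 and 0.02, SE 0.072 and 0.118). B2m, H2-K1 and H2-D1 were not called either (-0.13, -0.19 and -0.10, SE 0.093, 0.162 and 0.14).

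By the interaction test, 2 genes by edgeR and 3 by DESeq2 had a lower response to torin1 in AMPK KO than in WT, and 0 had a higher one by either, with 1 at an unadjusted p under 0.05 in that direction, against 2.92% lower and 4.15% higher over all genes. Those called by edgeR were Cxcl10 and Irf1, with differences in response of -0.67 and -0.35 (SE 0.168 and 0.104, adjusted p = 0.013 and 0.034). Cxcl10 was at 10.2, 10.0, 9.45 and 9.97 CPM in WT against 14.6, 15.2, 18.4 and 16.1 CPM in AMPK KO with torin1, so the drug narrowed the gap between the genotypes. The Irf1 call was lost in 7 of 16 fits without 1 library. Adding passage to the model gave 9 called members in either direction, beside 987 higher and 874 lower among all genes. For the 8 genes called higher with torin1 in WT and not in AMPK KO, the difference in response passed the test for Cxcl10 and Irf1. Those of Gbp3, Gbp7, Ifit1, Oasl2, Rsad2 and Usp18 ran from -0.97 to -0.36 and did not pass, which does not show that the responses were alike.

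**Figure D4:**
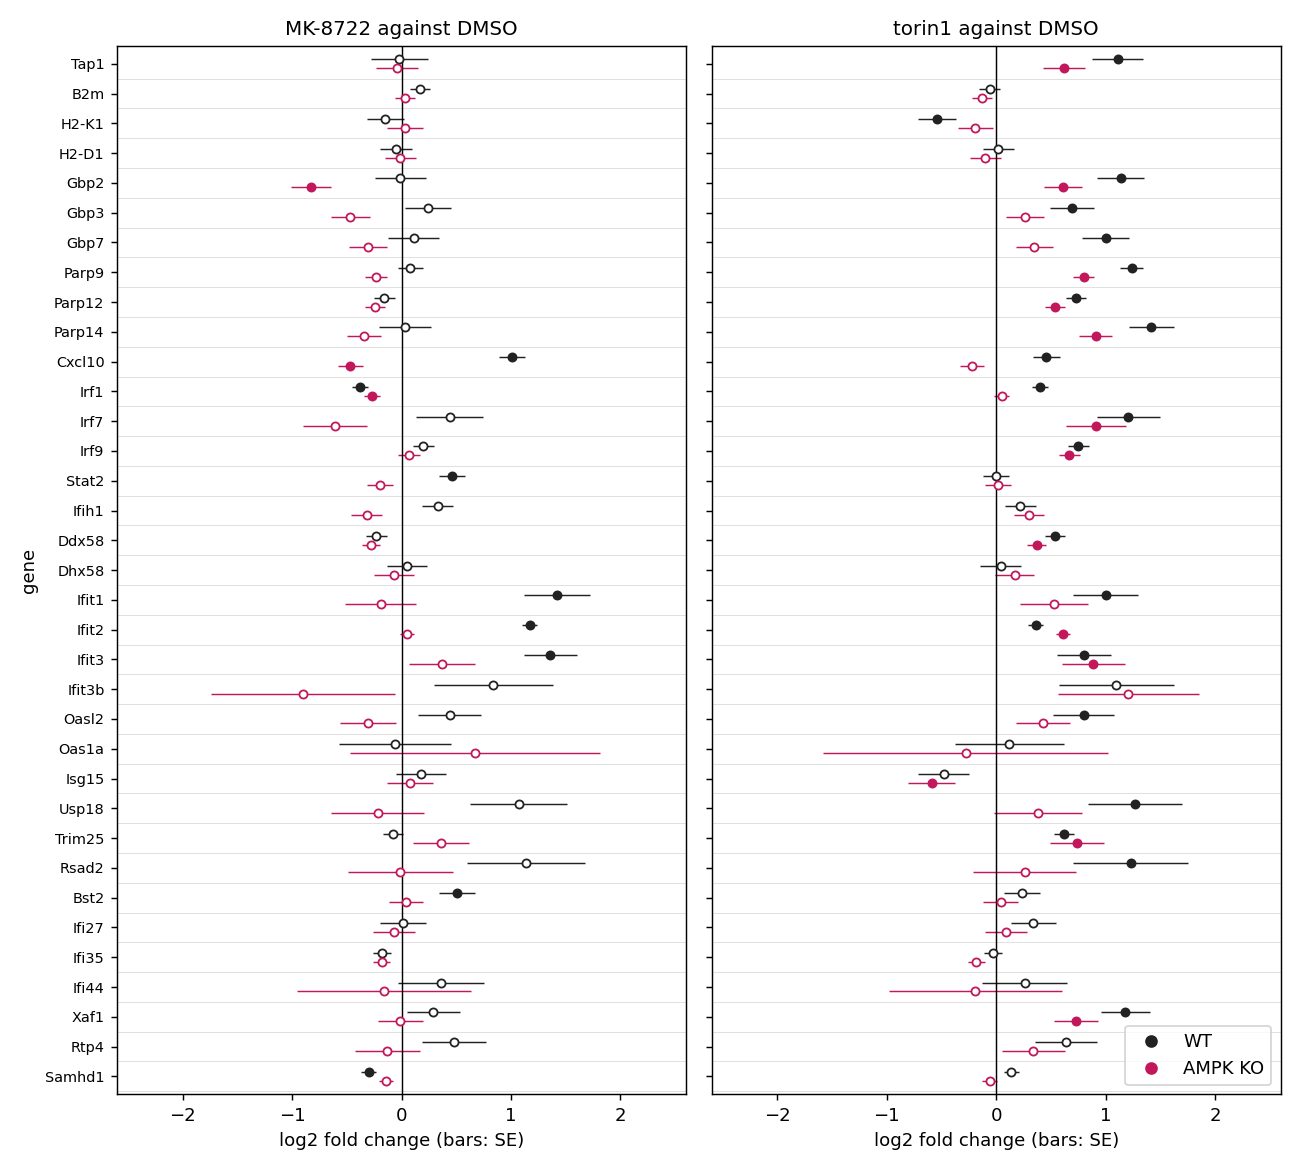
Log2 fold change against DMSO (horizontal axes) for each of 35 genes (vertical axis) with MK-8722 (left) and torin1 (right) in WT (black) and AMPK KO (magenta), with bars of 1 SE; filled points were called. With MK-8722, Ifit1, Ifit2, Ifit3 and Cxcl10 lie to the right in WT and, in AMPK KO, Ifit2 lies near 0, Ifit1 and Cxcl10 to the left and Ifit3 to the right without a call, and with torin1 most points of both genotypes lie to the right.

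The passage labels were then used within each genotype. For every gene the earliest passage was compared with the mean of the 3 later ones, with the treatment in the model. Libraries of a passage may come from 1 culture. The p-values of these comparisons therefore measure the spread between libraries only, not between cultures of a passage. In WT, 12 of the 35 genes were higher at passage 12 and 1 was lower, against 3.58% and 4.53% of all genes. The shares were 34.3% and 2.86%, and the median log2 difference was 0.17.

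Oas1a was the gene with the largest rise at passage 12. It was at 1.66, 0.439, 0.491 and 0.468 CPM with DMSO, 1.499, 0.779, 0.432 and 0.275 CPM with MK-8722 and 1.41, 1.05, 0.414 and 0.508 CPM with torin1, a log2 difference of 1.55 (SE 0.257, adjusted p = 2.3e-04). Usp18 (0.98, SE 0.257, adjusted p = 0.01) was at 1.10, 1.32, 0.765 and 0.707 CPM with MK-8722, where passage 12 was not the highest, unlike in the other two treatments given above. Rsad2 (ENSMUSG00000020641, chromosome 12, 26442746 to 26456452) was at 0.502, 0.110, 0.140 and 0.216, 0.585, 0.428, 0.565 and 0.628 and 0.927, 0.603, 0.414 and 0.399 CPM in the 3 treatments (0.84, SE 0.269, adjusted p = 0.031), a call lost in 6 of 12 fits without 1 library. Bst2 gave 0.63 (SE 0.046, adjusted p = 1.4e-08), and was highest at passage 12 in all 3 treatments. Ifi27, Parp14, Isg15, Ifit1, Rtp4, Gbp7, Oasl2 and Tap1 were higher by 0.54, 0.51, 0.50, 0.45, 0.45, 0.43, 0.42 and 0.41. The call of Rtp4 was lost in 9 of 12 fits without 1 library and under DESeq2 (adjusted p = 0.076), those of Usp18, Gbp7 and Tap1 in 2 and that of Oasl2 in 1. Stat2 was lower at passage 12, with a log2 difference of -0.36 (SE 0.056, adjusted p = 1.2e-04), and passage 12 was the lowest in all 3 treatments.

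Read by place alone, passage 12 was the highest of the 4 in all 3 treatments for 8 of the 35 genes (10.1% of all genes), which are Ifit1, Oasl2, Oas1a, Bst2, Ifih1, Parp14, Trim25 and Gbp7. It was the lowest in all 3 for Irf1, Stat2 and Samhd1 (7.87% of all genes). A straight line over the passages called 1 gene in WT, Oas1a.

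In AMPK KO, 4 of the 35 genes were higher at passage 16 and 0 lower, with 3 at an unadjusted p under 0.05 in that direction and 1 called lower by DESeq2, against 2.88% higher and 1.40% lower over all genes. They were Rsad2 (0.98, SE 0.256, adjusted p = 0.016), Trim25 (0.64, SE 0.134, adjusted p = 0.0073), Tap1 (0.39, SE 0.076, adjusted p = 0.0024) and Isg15 (0.29, SE 0.09, adjusted p = 0.036). Rsad2 was at 0.671, 0.259, 0.720 and 0.229, 0.662, 0.161, 0.644 and 0.415 and 0.891, 0.180, 0.781 and 0.427 CPM in the 3 treatments, so passages 16 and 18 were both high. By place, passage 16 was the highest in all 3 treatments for Trim25 alone (7.56% of all genes) and the lowest for Irf1, Cxcl10 and Samhd1 (8.83% of all genes). The Isg15 call was lost in 8 of 12 fits without 1 library.

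A wider pattern within AMPK KO lay at passage 17, and it was noticed after the values had been seen. Passage 17 was the lowest of the 4 passages in all 3 treatments for 24 of the 35 genes (68.6%), against 7.82% of all genes tested. Passage 18 was the highest in all 3 for 18 of the 35 genes (51.4%), against 5.03% of all genes. No member was highest at passage 17 or lowest at passage 18 in all 3 treatments. The 24 genes include the 4 antigen presentation genes, the 3 GTPases and the 3 PARPs, the factors Irf7 and Stat2, the sensors Ddx58 and Ifih1, Isg15 with Usp18 and Trim25, Ifit1, Oasl2, Bst2, Ifi27, Ifi35, Xaf1 and Rtp4. Irf1, Cxcl10 and Samhd1, the 3 that were lowest at passage 16, are not among them.

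With DMSO, MK-8722 and torin1, H2-K1 at passage 17 was 385, 399 and 349 CPM, and at passage 18 it was 636, 632 and 579 CPM. B2m was at 569, 439.9, 599.5 and 507 CPM with MK-8722 and 510, 386, 555 and 452 CPM with torin1 over passages 16 to 19, and H2-D1 at 649, 427, 648 and 535 and 555, 408, 639 and 509.8 CPM. Tap1 with MK-8722 was at 42.7, 22.4, 37.4 and 29.8 CPM, with the passages in the same order as with DMSO. Effectors were lowest at passage 17 too. Ifit1 with torin1 was at 4.42, 2.28, 7.66 and 4.09 CPM, and Isg15 with MK-8722 at 14.7, 8.43, 13.9 and 10.8 CPM.

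The passage 17 libraries held 30262944, 30900494 and 31450199 counts and had RNA integrity numbers of 9.9, 9.8 and 9.8, within the range of the other libraries. The labels do not say which cultures were handled together, so passage and day of handling cannot be told apart. Without passage 17, 28 members were called between the genotypes with DMSO, 27 with MK-8722 and 28 with torin1, compared with 25, 27 and 28 on all libraries.

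**Figure D5:**
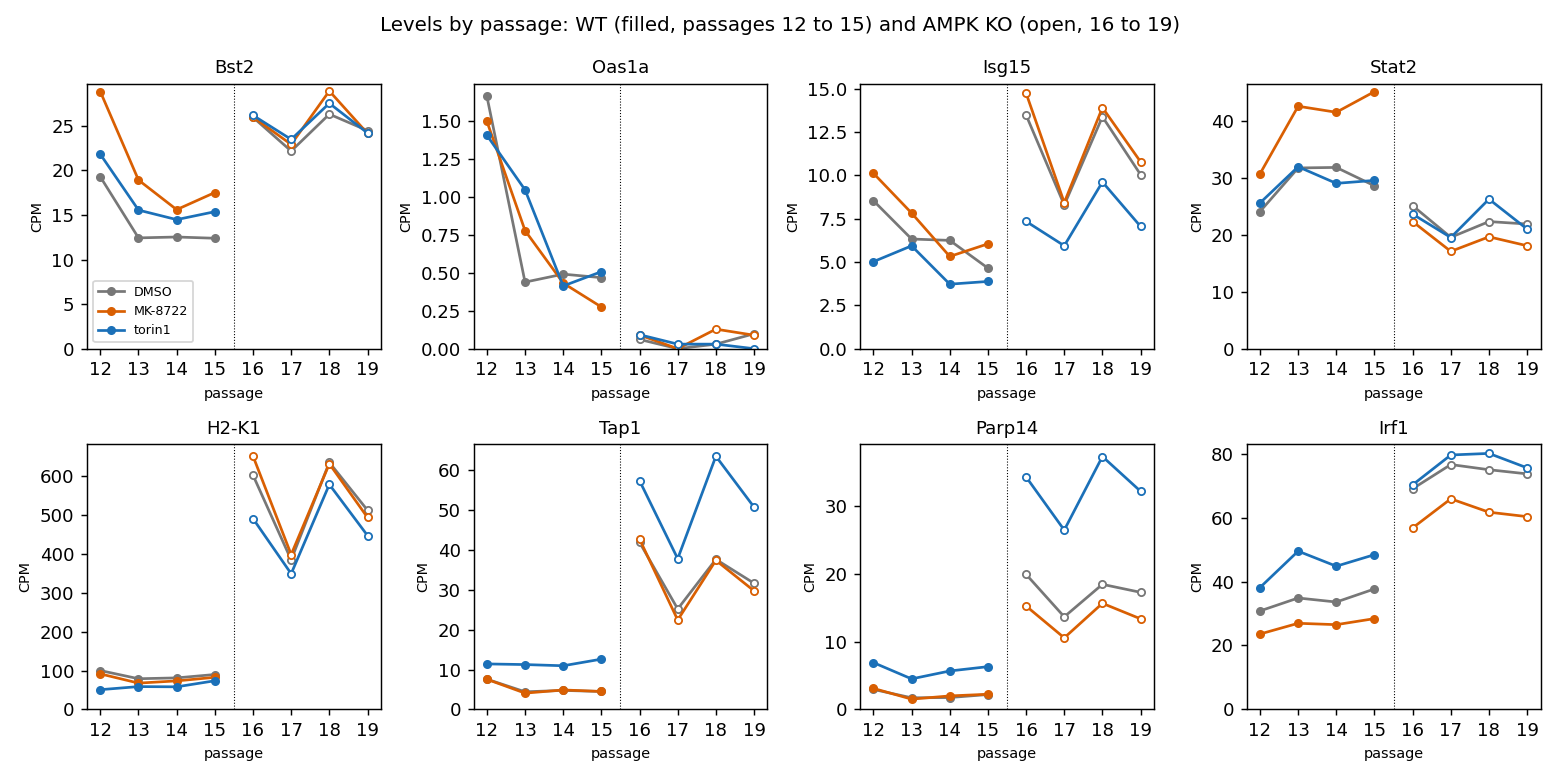
CPM (vertical axes) by passage (horizontal axes) for 8 genes, with 1 line per treatment, filled points for WT and open points for AMPK KO. Bst2, Oas1a and Isg15 are high at passage 12 with DMSO and MK-8722 and Stat2 is low there, and H2-K1, Tap1, Parp14 and Isg15 dip at passage 17 in all 3 treatments, whereas Irf1 does not.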

How the data were processed

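Poly(A) RNA of 24 MEF libraries was sequenced as paired reads. The authors aligned and quantified the reads with the nf-core RNA-seq workflow, which per the labels used STAR and Salmon on the mouse genome GRCm38, and deposited estimated counts per gene and TPM per transcript. Whether strand was used in counting is not given in the sources used here. The deposited estimated counts were rounded to whole numbers, and the authors' TPM values were summed per gene only to compare levels between genes. Library totals were 26900240 to 34192685 counts, and the 95% count intervals given cover counting error only.

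Genes were filtered with filterByExpr, scaled by TMM and fitted with edgeR 4.0.16 (R 4.3.3, limma 3.58.1) quasi-likelihood models holding 6 group means, on all 15828 genes that passed. Genotype, treatment and interaction contrasts were tested, and the earliest passage was compared with the mean of the 3 later passages in a model with passage nested in genotype. A gene was called where its adjusted p was below 0.05 and it differed at least 1.2-fold. CPM values use TMM library sizes. Both fits were tested on simulated counts drawn independently for each library, so that test does not cover a correlation between libraries of a passage. The members and lists were chosen with earlier results of these data known. All members are named by role, with every library for the antigen presentation genes, the transcription factors and up to 3 called members with the largest change in each direction of a comparison. From each further list up to 2 called genes per direction with a mean of at least 1 CPM are named. Alternatives were DESeq2 1.42.0, other scalings, no filter, replicate or passage blocks, the compared libraries alone, other thresholds, each library left out, and, chosen after seeing the data, fits without the earliest passages and without passage 17.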

Additional observations from a re-analysis of the deposited data

Results flagged for a closer look

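Each of 210 combinations of a gene and a group of 4 libraries was examined for a single library that stands apart, by Dixon's test of the gap to the next library as a share of the range. There were 13 such libraries, and chance gives about 1 in 20 combinations. Of the 13, 9 were high values at WT passage 12. With DMSO these were Oas1a at 1.66 CPM (next library 0.491), Bst2 at 19.3 CPM (next 12.5) and Tap1 at 7.60 CPM (next 4.77). With MK-8722 they were Parp9 at 10.5 CPM (next 8.01), Trim25 at 55.8 CPM (next 46.7) and Gbp7 at 2.23 CPM (next 1.45). With torin1 they were Usp18 at 1.86 CPM (next 0.906), Bst2 at 21.8 CPM (next 15.6) and Xaf1 at 3.45 CPM (next 2.68).

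The other 4 were of different passages. Gbp2 was at 2.45 CPM in the passage 13 library of WT with DMSO, and H2-D1 at 137 CPM in the passage 15 library of WT with torin1. In AMPK KO with MK-8722, Ifit3 was low at 0.387 CPM in the passage 17 library and Ddx58 high at 37.6 CPM in the passage 18 library.

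Responses that differed between the genotypes by the interaction test, given as AMPK KO minus WT on the log2 scale, were those to MK-8722 of Ifit1 (-1.60), Cxcl10 (-1.48), Ifit2 (-1.12), Stat2 (-0.67) and Ifih1 (-0.65), and those to torin1 of Cxcl10 (-0.67) and Irf1 (-0.35).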

How the results depend on the processing

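Each of 149 calls was refitted under the alternatives, 2854 refits in all. The call was kept in 2695 refits and lost in 159, and no direction reversed. Each count below gives members called in either direction by edgeR. A fold change of at least 1.5 gave 4 for MK-8722 in WT, 1 for MK-8722 in AMPK KO, 1 for the torin1 interaction, 4 for the earliest passage in WT and 2 in AMPK KO. The adjusted p alone gave 21 for the earliest passage in WT and 13 in AMPK KO, a linear slope per passage gave 1 and 0, and library size alone gave 7 in AMPK KO. Without passage 17, 1 remained for MK-8722 in AMPK KO. With library size alone the median of all genes moved to 0.14 and 0.12 for torin1 in WT and AMPK KO and to 0.15, 0.13 and 0.14 for AMPK KO over WT with DMSO, MK-8722 and torin1. The cause of these shifts was not tested.

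Leaving out 1 library gave 6 to 10 for MK-8722 and 19 to 24 for torin1 in WT, 0 to 2 and 11 to 16 in AMPK KO, and 25 to 27, 26 to 29 and 26 to 28 between the genotypes with DMSO, MK-8722 and torin1. It gave 4 to 8 and 1 to 4 for the MK-8722 and torin1 interactions, and 9 to 14 and 1 to 7 for the earliest passage in WT and AMPK KO. Counts moved by over 1.5 times without these libraries. For MK-8722 in AMPK KO, 0 were left without passage 18 with DMSO or passage 19 with MK-8722, and 1 without passage 19 with DMSO or passage 16 or 17 with MK-8722. For the MK-8722 interaction, 8 were called without AMPK KO passage 18 with MK-8722. For the torin1 interaction, 4 were called without AMPK KO passage 16 with DMSO, and 1 without WT passage 13 or 14 with DMSO, AMPK KO passage 19 with DMSO or passage 16 with torin1. For the earliest passage in AMPK KO, 7 were called without passage 18 with torin1, 2 without passage 16 with DMSO and 1 without passage 16 with MK-8722.

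Replicate numbers did not pair the libraries: deviations from the group means correlated above 0.1 in 5 of 60 pairs that share a number (median 0.02). With the replicate block, 9 members were called for MK-8722 and 22 for torin1 in WT, 3 and 13 in AMPK KO, 25, 27 and 28 between the genotypes, and 5 and 2 for the interactions. Libraries that share a passage correlated above 0.1 in 6 of 12 pairs in WT (median 0.10) and 9 of 12 in AMPK KO (median 0.13), against 0 of 72 pairs of other passages. The passage block gave 13 for MK-8722 in WT, 9 in AMPK KO, and 14 and 9 for the MK-8722 and torin1 interactions. Members below 1 CPM, such as Rsad2, Oas1a and Ifi44, rest on few counts, and depth limits their precision.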
